A study of Mus musculus with 6 samples.

Results

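Ribosome biogenesis factors are the proteins that transcribe, fold, modify and cut ribosomal RNA and assemble it with ribosomal proteins. The 60 described here were taken as a list of gene symbols, and each symbol matched exactly 1 of the 53465 Ensembl genes in the deposited count table through the mouse annotation GENCODE M21 (GRCm38). They comprise 6 factors of RNA polymerase I, 5 core proteins of small nucleolar ribonucleoproteins (snoRNPs), 4 abundant nucleolar proteins with several roles, 22 factors of the small-subunit processome, 6 late factors of the 40S subunit and 17 factors of large-subunit assembly. The series measured ribosome-protected fragments in ID8, a tumour-forming line that arose from ovarian surface epithelium of mice. It has 3 libraries labelled WT, from cells given a control guide RNA (sgNC), and 3 labelled KO, from cells given a guide against Nat10 (sgNat10). All 6 received cycloheximide (100 µg/mL, 2 minutes) before harvest. The labels do not state whether KO cells were a clone or a pool, or whether replicates were separate cultures, so p-values measure the spread between these libraries only.

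Ribosomes are made in the nucleolus. RNA polymerase I copies ribosomal DNA into a long precursor, snoRNPs guide its modification, the small-subunit processome folds and cuts the 18S part, and separate factors build the 60S subunit around the remaining RNA. NAT10 belongs to the same process, since it acetylates cytidines of 18S rRNA and transfer RNA. Growing tumour cells spend much of their protein synthesis on ribosomes. The comparison asks whether ribosome occupancy of the assembly factors differed in the libraries labelled KO. The count of a gene here depends on both its mRNA amount and the ribosomes on it.

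No member was called. Of the 60 factors, all passed the filter on low counts, and edgeR's quasi-likelihood test called 0 at an adjusted p under 0.05, where 33 of all 8200 tested genes (0.402%) were called. DESeq2 also called 0 members, against 2.66% of the genes it gave an adjusted p. At an unadjusted p under 0.05 edgeR had 5 members (8.33%), beside 6.49% of all tested genes. These 5 were Polr1a, Mphosph10, Nol9, Noc3l and Npm1, and all had lower values in KO; 3.79% of all genes had an unadjusted p under 0.05 and a lower value. The median log2 fold change, KO minus WT, was -0.19 over the members and -0.016 over all tested genes, and 39 of 60 members (65.0%) were negative, beside 51.0% of all genes. The members' median was -0.34 without WT replicate 3, -0.11 without WT replicate 1 and -0.081 with plain library totals, a scaling that put the median of all genes at 0.094. In bulk libraries, fewer cells with a given program and less of it per cell cannot be told apart.

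Depth sets how these values can be read. Total counts were 1687466 to 2148715 in WT and 2234305 to 3126208 in KO. The number of genes per count had a local peak at 15, 21 and 39 counts in WT and at 42, 46 and 60 in KO, so a count may hold many copies of a fragment. Counts divided by this modal count are called molecule equivalents. Per library they summed to 112498, 102320 and 46442 in WT and 60506, 48572 and 52103 in KO. On this scale WT replicates 1 and 2 were the deepest, although KO had the larger total counts. The members averaged a median of 7.13 molecule equivalents, beside 2.57 for all tested protein-coding genes, and 6 of the 60 averaged under 3. Libraries correlated across genes on the scale of log CPM (CPM being the count relative to a library size adjusted by TMM), at 0.623 to 0.705 within WT, 0.571 to 0.602 within KO and 0.543 to 0.630 between groups. Of 8 markers of ovarian surface epithelium or mesothelium, 6 had counts in every library, while Krt7 and Lrrn4 were at or near 0. Their summed level was 5861 to 6331 CPM in WT and 4180 to 4827 CPM in KO. Krt8, Krt18 and Krt19 differed in one direction (Krt19 at 3981 to 4380 CPM in WT, 2201 to 2259 in KO) and Msln in the other (706 to 873 and 1403 to 1805 CPM). Their part in the results below was not tested. Markers of leukocytes, endothelium, fibroblasts and red blood cells summed to at most 14.5 CPM per list in any library. Fragments of Nat10 did not differ detectably between the groups (WT 112 ± 53.1 CPM, KO 106 ± 43.1 CPM, SD, n = 3, edgeR adjusted p = 1.0), so KO is used as a label only.

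**Figure D1:**
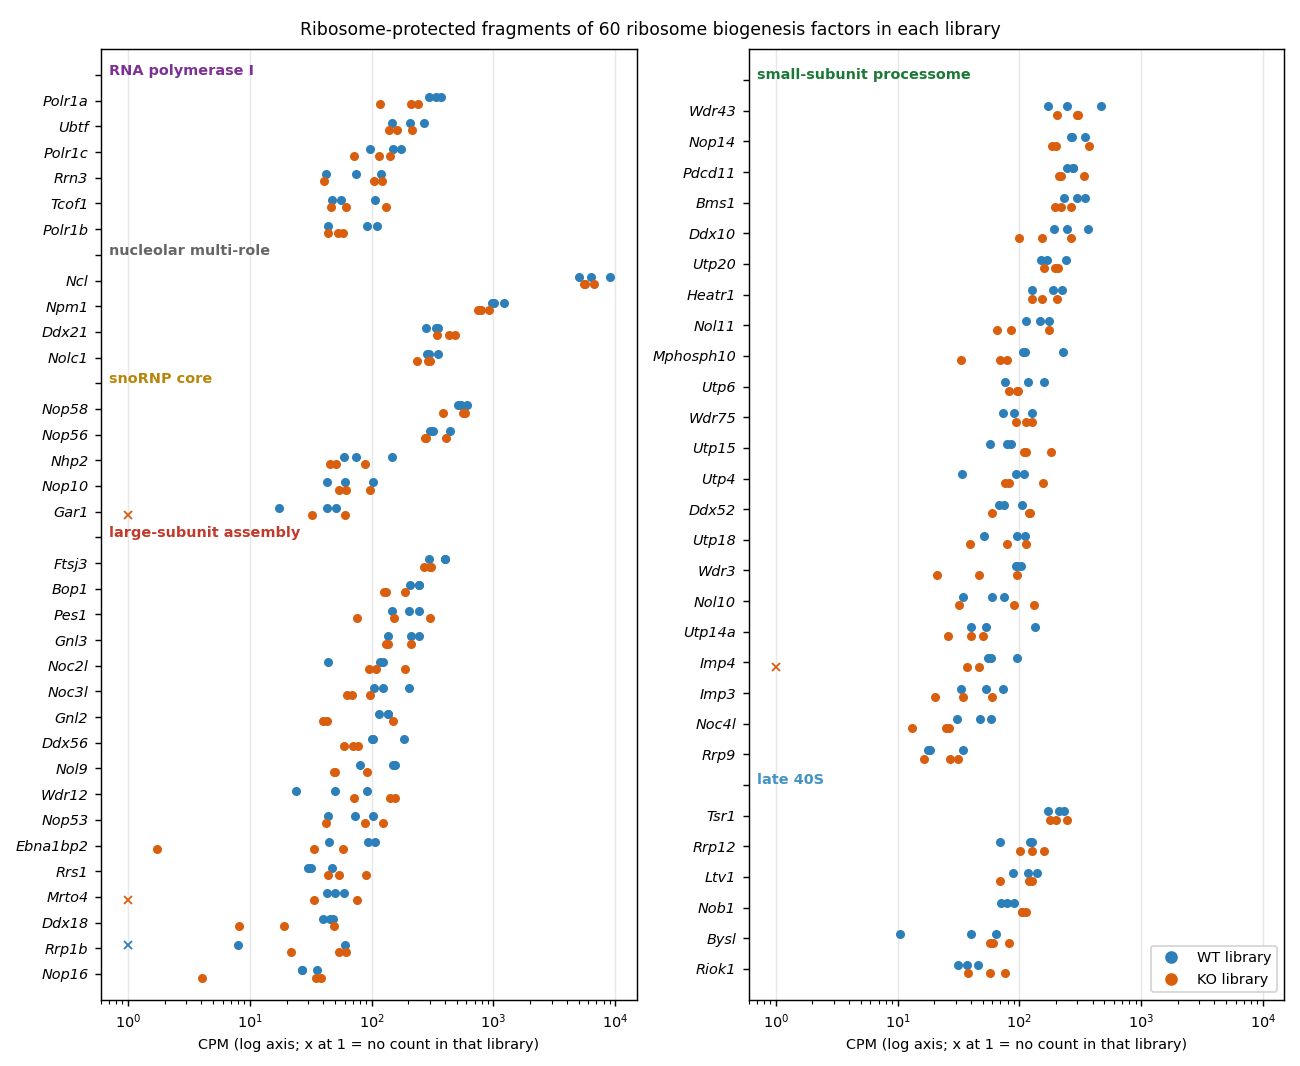
Normalised fragment level (CPM, log axis) of each of the 60 members in the 3 WT (blue) and 3 KO (orange) libraries, grouped by role and ordered by mean level; a cross at 1 marks a library with no count. Ncl stands apart at the top of the range, and the WT and KO points of 50 members overlap. Without overlap, KO is lower for 8 members (13.3%, beside 7.93% of all tested genes). It is higher for 2 (3.33%, beside 6.94%). Gar1, Imp4 and Mrto4 have no count in KO replicate 3, nor Rrp1b in WT replicate 3.

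The factors share features that the list did not use. Their coding sequences were long, with a median of 2009 nt (from 195 nt in Nop10 to 8370 nt in Utp20) beside 1476 nt for tested protein-coding genes. Codons ending in C, the base that NAT10 acetylates in RNA, made up a median of 25.3% of their codons, beside 28.7% for tested protein-coding genes, and ranged from 13.4% in Nop58 to 39.7% in Imp3. Across the 60 members the share of codons ending in C and the log2 fold change correlated at r = 0.011 (Spearman 0.024), and across 8072 tested coding genes at r = 0.018. All these genes come from the same 6 libraries, so the values are descriptions. Of the 60 genes 7 (11.7%) enclose a snoRNA gene on their own strand, beside 2.19% of tested protein-coding genes: Ncl, Nop56, Nop58, Wdr43, Tsr1, Gnl3 and Nop53.

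Promoters were searched for CACGTG, the E-box bound by MYC and its relatives and the same on both strands. RefSeq promoters (GRCm38.p6, 250 bases before to 50 after the start) were available for 52 members. The motif was present for 10 of them (19.2%), beside 12.8% of tested genes and 8.09% of all genes in the table of promoters. Those 10 were Imp4, Utp4, Ltv1, Utp20, Pes1, Tsr1, Utp18, Nol11, Rrn3 and Wdr43, and their log2 fold changes ran from -1.33 (Imp4) to 0.40 (Utp4). Of the stretches upstream of the start that hold the motif, all 5 are printed to show its setting in 4 promoters, with the motif in capitals. A match is a description of the letters and not a measured binding site. They lie at chr1:34439683-34439732 (plus strand, Imp4), chr11:93885767-93885811 (minus strand, Utp18), chr11:107189400-107189449 (minus strand, Nol11) and chr16:13780459-13780508 and chr16:13780626-13780675 (plus strand, Rrn3, in this order).
Imp4: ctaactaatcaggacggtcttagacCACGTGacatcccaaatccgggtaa
Utp18: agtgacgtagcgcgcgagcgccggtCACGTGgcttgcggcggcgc
Nol11: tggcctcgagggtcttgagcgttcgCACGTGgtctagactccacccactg
Rrn3: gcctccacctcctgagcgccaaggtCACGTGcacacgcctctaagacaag
Rrn3: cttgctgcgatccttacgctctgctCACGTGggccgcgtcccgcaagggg

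RNA polymerase I comes first in the pathway. Its 6 factors had a median log2 fold change of -0.32, with 4 negative, 2 positive and 0 called. Polr1a, the largest subunit, which carries the catalytic centre (chromosome 6, 71909053 to 71984935, plus strand), stood at 374, 297 and 339 CPM in WT and 117, 240 and 211 CPM in KO. The groups did not overlap, as for 7.93% of all tested genes with KO lower. Its log2 fold change was -0.83 (SE 0.30, 95% interval -1.48 to -0.18, edgeR adjusted p = 0.528). The KO libraries thus had 189 ± 64.6 CPM and the WT libraries 337 ± 38.4 CPM (SD, n = 3), and the value ran from -1.03 to -0.57 when single libraries were left out.

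Polr1b, which forms the active centre with Polr1a, stood at 43.8, 91.9 and 110 CPM in WT and 58.1, 43.7 and 52.4 CPM in KO, with overlapping groups (log2 fold change -0.67, SE 0.54). For Polr1c, shared with RNA polymerase III, the groups overlapped as well (149, 175 and 97.1 CPM in WT; 71.4, 115 and 141 CPM in KO; log2 fold change -0.36, SE 0.40). Ubtf, which bends and opens ribosomal DNA, had 269, 207 and 147 CPM in WT and 161, 140 and 213 CPM in KO (-0.28, SE 0.33, interval -0.98 to 0.42), so a 2-fold difference lies outside its interval. Rrn3, which recruits the polymerase to the promoter, and the nucleolar phosphoprotein Tcof1 both stood at 0.18 (SE 0.55 and 0.56). In this role the catalytic subunit had the smallest p, and Ubtf, Rrn3 and Tcof1 had the values nearest to 0.

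Of the 4 multi-role proteins, Ncl and Npm1 had the narrowest intervals of all members. Ncl, nucleolin, an RNA-binding protein of the nucleolus, had the highest level of all members, with 9074, 6302 and 5081 CPM in WT and 5541, 6634 and 5622 CPM in KO. WT replicate 1 was high, and the other 5 libraries lay between 5081 and 6634 CPM. Its log2 fold change was -0.20 (interval -0.58 to 0.18), and 0.060 without WT replicate 1. Npm1, nucleophosmin, a histone and ribosome chaperone, stood at 1224, 1006 and 979 CPM in WT and 911, 743 and 795 CPM in KO. Its groups did not overlap, and the log2 fold change was -0.39 (SE 0.18, edgeR adjusted p = 0.768).

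For Npm1, 87.6% of the 28-base windows of its coding sequence also occur in transcripts of other genes (Gm9118 among them), which makes its value uncertain. For Ncl the share was 16.0% (Gm12020 and Gm17837). Ddx21, an RNA helicase of ribosomal DNA transcription and rRNA processing, was the only multi-role member with a positive value: 353, 280 and 338 CPM in WT and 485, 433 and 344 CPM in KO (log2 fold change 0.38, SE 0.24). Its groups overlapped between KO replicate 3 and WT replicate 1. Nolc1, a chaperone of snoRNPs, was even over all libraries, with 348, 284 and 297 CPM in WT and 289.5, 234 and 300.3 CPM in KO (-0.17, interval -0.71 to 0.36).

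Of the 5 core snoRNP proteins, 0 were called. Nop58 and Nop56, the paired scaffold proteins of box C/D snoRNPs, which guide 2'-O-methylation, had log2 fold changes of -0.11 (interval -0.59 to 0.36) and -0.13 (interval -0.69 to 0.43), both within 2-fold. Nop58 had 537, 606 and 513 CPM in WT and 582, 562 and 386 CPM in KO, and Nop56 had 437, 318 and 302 CPM in WT and 281, 274 and 411 CPM in KO. The box H/ACA proteins, which serve pseudouridylation, were measured far less well. Nhp2 had 74.2, 146 and 59.0 CPM in WT and 45.3, 50.5 and 88.7 CPM in KO (-0.60, SE 0.53), with WT replicate 2 high. Nop10 had 60.2, 43.0 and 103 CPM in WT and 96.0, 54.4 and 61.1 CPM in KO (0.034, SE 0.53), with overlapping groups.

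The WT counts of Gar1 were 84, 86 and 30 and its KO counts 156, 75 and 0, and its interval of -3.07 to 2.55 allows a large difference either way. The role median was -0.13, and 0.048 without KO replicate 3. In that library Gar1 is at 0 and Nop58 has its lowest level (386 CPM). Of 28-base windows, 41.3% for Nop56, 36.9% for Nop10 and 11.3% for Nhp2 occur in other transcripts.

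The small-subunit processome, a giant particle that assembles on the 5' end of the precursor, had 22 members with a median of -0.19, 15 negative and 7 positive, 0 called. The smallest p was that of Mphosph10 (chromosome 7, 64376527 to 64392268, minus strand), which holds Imp3 and Imp4 on the U3 snoRNA. It stood at 229, 110 and 108 CPM in WT and 79.6, 69.4 and 33.5 CPM in KO. WT replicate 1 was high, and the groups did not overlap (log2 fold change -1.29, SE 0.48, interval -2.32 to -0.27, edgeR adjusted p = 0.542). Without WT replicate 1 the value was -0.84. Its partners had negative values with wide intervals: Imp4 at -1.33 (SE 1.10, with 59.0, 55.5 and 95.4 CPM in WT and 46.4, 37.3 and 0 CPM in KO, no overlap) and Imp3 at -0.48 (SE 0.71).

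In the UTP-A subcomplex, the first to bind the nascent precursor, values went both ways. Utp15 stood at 85.7, 78.9 and 57.2 CPM in WT and 114, 181 and 109 CPM in KO, with every KO library above every WT library (log2 fold change 0.86, SE 0.42, edgeR adjusted p = 0.811). Groups with KO higher and no overlap held for 6.94% of all tested genes. Its partners Utp4 (0.40), Wdr75 (0.21), Wdr43 (-0.15), Heatr1 (-0.16) and Nol11 (-0.42) had overlapping groups. Wdr43 had 471, 245 and 172 CPM in WT and 298, 302 and 203 CPM in KO, and its sign turned to 0.36 without WT replicate 1.

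UTP-B members, which extend the scaffold, stood at -0.84 (Wdr3), -0.37 (Utp6) and -0.16 (Utp18). Wdr3 was even in WT (94.2, 95.9 and 103 CPM) and spread in KO (21.1, 47.1 and 95.2 CPM). Of the RNA helicases, Ddx10 stood at 364, 245 and 191 CPM in WT and 153, 98.9 and 267 CPM in KO (log2 fold change -0.62, SE 0.38), and Ddx52 at 0.29 (SE 0.46). Utp14a, which activates a helicase of the particle, had 53.5, 134 and 40.5 CPM in WT and 50.7, 40.2 and 25.7 CPM in KO (-0.97, SE 0.64). Its WT replicate 2 lay above the other 5 libraries (25.7 to 53.5 CPM), and without it the value was -0.27. Noc4l, a partner of Nop14, had low levels that did not overlap in CPM (47.4, 59.0 and 30.6 in WT; 26.5, 13.3 and 25.1 in KO) and an interval from -3.03 to 0.88.

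For 6 processome members the interval lay within a 2-fold difference in either direction. These were the large HEAT-repeat proteins Utp20 (0.0039, interval -0.66 to 0.67) and Heatr1 (interval -0.88 to 0.57), Pdcd11, which acts in both subunits (-0.050, interval -0.65 to 0.55), Nop14 (-0.22, interval -0.88 to 0.44), the GTPase Bms1 (-0.36, interval -0.95 to 0.23) and Wdr43 (interval -0.89 to 0.59). Nol10 stood at 0.58 (SE 0.59), and Rrp9, a U3 snoRNP protein, averaged 1.55 molecule equivalents, the fewest of all members, with a value of 0.083 (SE 1.25).

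**Figure D2:**
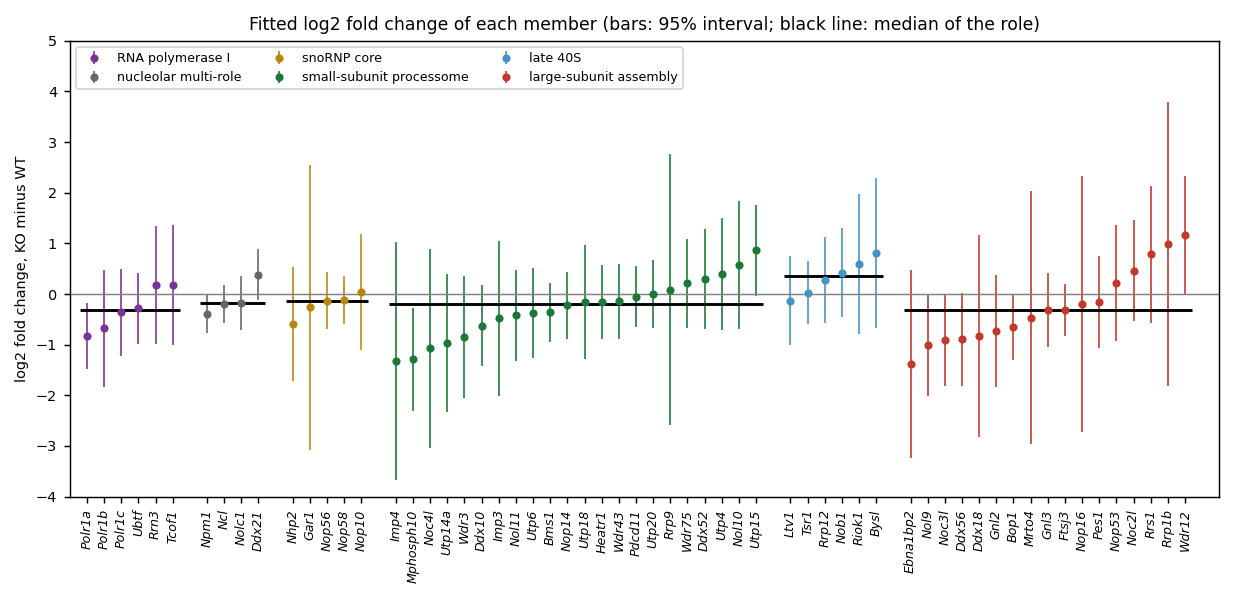
Log2 fold change (KO minus WT, edgeR) of each member with its 95% interval, coloured by role and ordered within it; black lines are role medians. The intervals of 5 members (Polr1a, Npm1, Mphosph10, Nol9 and Noc3l) lie below 0 before adjustment and those of the other 55 include 0, while late 40S factors are the only role with a median above 0 (0.35).

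Late factors of the 40S subunit, which export and finish the particle, had a median above 0, with no test of the group. Of 6 members 5 were positive and the median was 0.35, from 0.23 to 0.45 when single libraries were left out, with 0 called. Nob1, the nuclease that makes the final cut at the 3' end of 18S rRNA (chromosome 8), stood at 79.7, 89.9 and 71.1 CPM in WT and 105, 113 and 105 CPM in KO, with no overlap and a log2 fold change of 0.42 (SE 0.41, edgeR adjusted p = 1.0). The model's SE draws on the spread of all genes at this depth, and Nob1 itself had an SD of 9.43 CPM in WT and of 4.69 CPM in KO (n = 3). An SD over 3 libraries is itself uncertain, and Nob1 averaged only 6.37 molecule equivalents. KO higher without overlap held for 6.94% of all tested genes.

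Bysl, which binds the precursor early and leaves it in the cytoplasm, stood at 40.1, 64.0 and 10.4 CPM in WT and 61.2, 82.6 and 57.7 CPM in KO (log2 fold change 0.81, SE 0.69). WT replicate 3 was the low library, and without it the value was 0.37. The atypical kinase Riok1 had 45.6, 37.0 and 31.2 CPM in WT and 37.8, 76.2 and 57.7 CPM in KO (0.59, SE 0.65). Rrp12, an export factor that also serves the 60S subunit, had 127, 123 and 69.4 CPM in WT and 128, 101 and 158 CPM in KO (0.28, SE 0.40; 0.044 without WT replicate 3). Both overlapped between groups. Ltv1 was the only negative member of this role (-0.13, SE 0.41). The GTPase-like Tsr1 had 212, 170.4 and 234 CPM in WT and 179, 247 and 201 CPM in KO (0.027, interval -0.60 to 0.65), within 2-fold.

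Large-subunit assembly had 17 members with a median of -0.31, 12 negative and 5 positive, 0 called. Nol9, the kinase that prepares the cut ends of the second internal spacer, stood at 156, 79.9 and 149 CPM in WT and 50.3, 91.2 and 48.7 CPM in KO (-1.02 on the log2 scale, SE 0.46, edgeR adjusted p = 0.736), with KO replicate 2 inside the WT range. Noc3l, which accompanies pre-60S particles in the nucleus, stood at 201, 105 and 124 CPM in WT and 63.2, 68.9 and 96.5 CPM in KO, without overlap (log2 fold change -0.91, SE 0.42). Its relative Noc2l stood at 0.46 (SE 0.47). The helicase Ddx56 had 102, 102 and 183 CPM in WT and 59.7, 70.6 and 77.9 CPM in KO, again without overlap (-0.89, SE 0.43).

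The PeBoW complex of Pes1, Bop1 and Wdr12 is needed for processing of the 5.8S and 28S part, and its members had values of both signs, none called. Bop1 stood at 244, 206 and 244 CPM in WT and 131, 125 and 188 CPM in KO, with no overlap (log2 fold change -0.64, SE 0.31, edgeR adjusted p = 0.781). Wdr12 had the highest value of all members, with 49.9, 90.9 and 23.7 CPM in WT and 71.0, 141 and 155 CPM in KO (1.16, SE 0.55, edgeR adjusted p = 0.776). KO replicate 1 lay inside the WT range. Pes1 stood at -0.16 (SE 0.43), with KO libraries from 75.7 to 300.1 CPM. Of the 28-base windows of Wdr12 54.8%, and of Pes1 55.7%, occur in other transcripts, and of Bop1 none.

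Most of the other large-subunit factors had wide intervals. Ftsj3, an rRNA methyltransferase, was well measured, with 398, 397 and 295 CPM in WT and 307, 270.2 and 302 CPM in KO (-0.31, interval -0.82 to 0.21). The GTPases Gnl3 (nucleostemin) and Gnl2 stood at -0.31 (SE 0.34) and -0.72 (SE 0.52). Gnl2 was even in WT (115, 136 and 135 CPM), with 42.9, 39.8 and 150.5 CPM in KO. Ebna1bp2 had the lowest value of all members (-1.38, SE 0.87), with WT counts of 174, 188 and 77 and KO counts of 86, 4 and 188. Rrs1, which helps to bring in the 5S particle, stood at 0.78 (SE 0.64) and Nop53 at 0.22 (SE 0.54).

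Of these factors, Mrto4 and Rrp1b had no count in 1 library each. For Mrto4 the WT counts were 82, 118 and 74 and the KO counts 86, 178 and 0 (log2 fold change -0.47, SE 1.17). For Rrp1b the WT counts were 100, 16 and 0 and the KO counts 137, 144 and 70 (0.99, SE 1.31). Ddx18 (-0.82, SE 0.93) and Nop16 (-0.20, SE 1.18) averaged 2.58 and 1.90 molecule equivalents. For Ddx18 85.4% and for Mrto4 67.1% of 28-base windows occur in other transcripts, so their counts are uncertain. For Rrs1 the share was 34.5% and for Nop53 29.6%.

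Between roles, the medians of RNA polymerase I (-0.32) and large-subunit assembly (-0.31) were lower than that of the small-subunit processome (-0.19), and the late 40S median (0.35) was higher, beside -0.016 over all tested genes. The order of the first 3 depended on single libraries: without KO replicate 3 they were -0.53, -0.21 and -0.36, and without KO replicate 1 they were -0.17, -0.42 and -0.15. The processome median was -0.43 and the large-subunit median -0.52 without WT replicate 3. Leaving out 6 large-subunit members with at least 10% of windows in other transcripts moved that median to -0.64. These ranges overlap, so the 3 medians were not separated, and no test of their difference was made. Scaling by plain library totals moved the median of all genes to 0.094 and gave -0.21 for RNA polymerase I, -0.20 for large-subunit assembly, -0.080 for the processome and 0.46 for late 40S factors.

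Per library, the median member stood at 0.41, 0.21 and 0.31 (WT) and -0.091, -0.065 and -0.074 (KO) on the log2 scale around its own 6-library mean for large-subunit assembly, so the groups did not overlap. For the small-subunit processome the library values were 0.32, 0.29 and -0.077 (WT) and -0.14, -0.22 and 0.057 (KO), and for RNA polymerase I 0.57, 0.22 and -0.31 (WT) and -0.38, -0.10 and -0.0065 (KO), where the groups overlapped. Late 40S factors had -0.076, 0.031 and -0.45 (WT) and -0.019, 0.27 and 0.28 (KO). The same median over all tested genes was 0.24, 0.23 and 0.035 in WT and 0.11, 0.084 and 0.14 in KO. WT replicate 3 was the lowest WT library for RNA polymerase I, the processome and late 40S factors but not for large-subunit assembly.

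**Figure D3:**
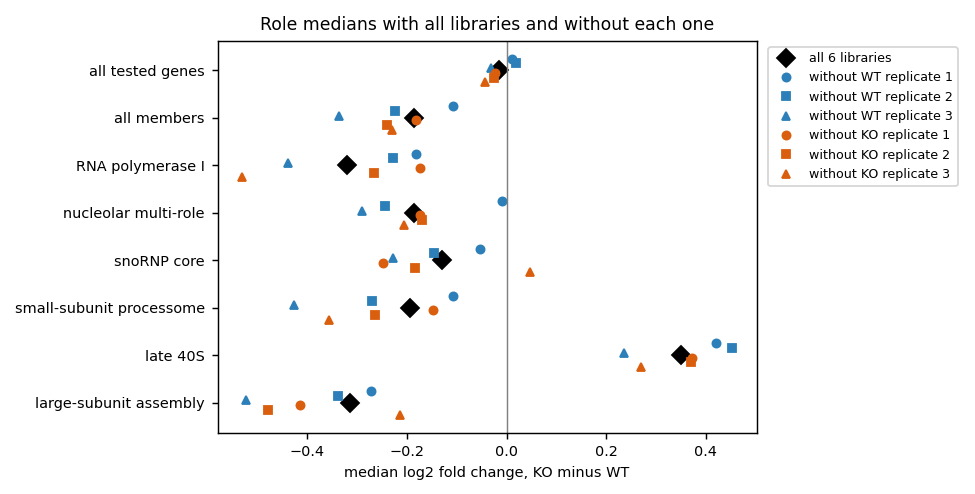
Median log2 fold change (KO minus WT) of each role, of all members and of all tested genes, with all 6 libraries (black diamonds) and without each library (blue, a WT library left out; orange, a KO library left out). Late 40S stays between 0.23 and 0.45, large-subunit assembly between -0.52 and -0.21, and the snoRNP median crosses 0 without KO replicate 3.

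As a share of all counts, the 60 members took 1.54% ± 0.319 in WT and 1.44% ± 0.102 in KO (SD, n = 3). Ncl alone made up much of this and of its spread, and without it the share was 0.892% ± 0.112 in WT and 0.834% ± 0.0406 in KO. The processome took 0.290% ± 0.0445 and 0.268% ± 0.0246, large-subunit assembly 0.192% ± 0.0236 and 0.168% ± 0.0176, and late 40S factors 0.0556% ± 0.00398 and 0.0696% ± 0.00986. Whether groups overlapped turned with the scaling. As shares of plain totals, late 40S factors did not overlap (at most 0.0580% in WT and at least 0.0585% in KO) and large-subunit assembly did. As summed CPM, late 40S factors overlapped (593, 623 and 534 in WT; 580.1, 741 and 706 in KO) and large-subunit assembly did not (2245, 1926 and 1851 in WT; 1491, 1775 and 1619 in KO). The processome overlapped on both scales.

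Levels can be compared between genes only per length, as CPM per kb of coding sequence. On that scale Ncl (3211 in WT) and Npm1 (1217) lay far above the rest, followed by Nop10 (353), Nop58 (343), Nop56 (202) and Nhp2 (201), whose SDs over WT libraries (160, 30.1, 42.1 and 100.5) do not separate Nop10 from Nop58 or Nop56 from Nhp2. All of these genes but Nop58 have at least 10% of their 28-base windows in other transcripts, so their densities are uncertain. The median member had 62.6 CPM per kb in WT and 50.8 in KO, beside 24.8 and 25.2 for all tested genes with a coding sequence. Rrp1b (10.5) and Rrp9 (16.5) had the lowest density in WT.

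Within complexes, densities of partners were close in some and far apart in others. Nop58 and Nop56 had 343 and 202 CPM per kb in WT and 316 and 185 in KO. In the complex of Mphosph10, Imp3 and Imp4 the mean densities were 72.8, 95.8 and 79.8 CPM per kb in WT, a 1.32-fold range, and 29.7, 68.6 and 31.8 in KO, a 2.31-fold range. In PeBoW they were 112 (Pes1), 105 (Bop1) and 43.1 (Wdr12) in WT, a 2.59-fold range, and 99.7, 67.3 and 96.3 in KO, a 1.48-fold range. In RNA polymerase I Polr1c, which also serves RNA polymerase III, lay 5.60 times above Polr1b in WT and 6.94 times in KO. In UTP-A Wdr43 lay 5.20 times above Heatr1 in WT and 5.23 times in KO. These ratios have no test, and copies elsewhere touch Nop56, Imp3, Pes1 and Wdr12.

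**Figure D4:**
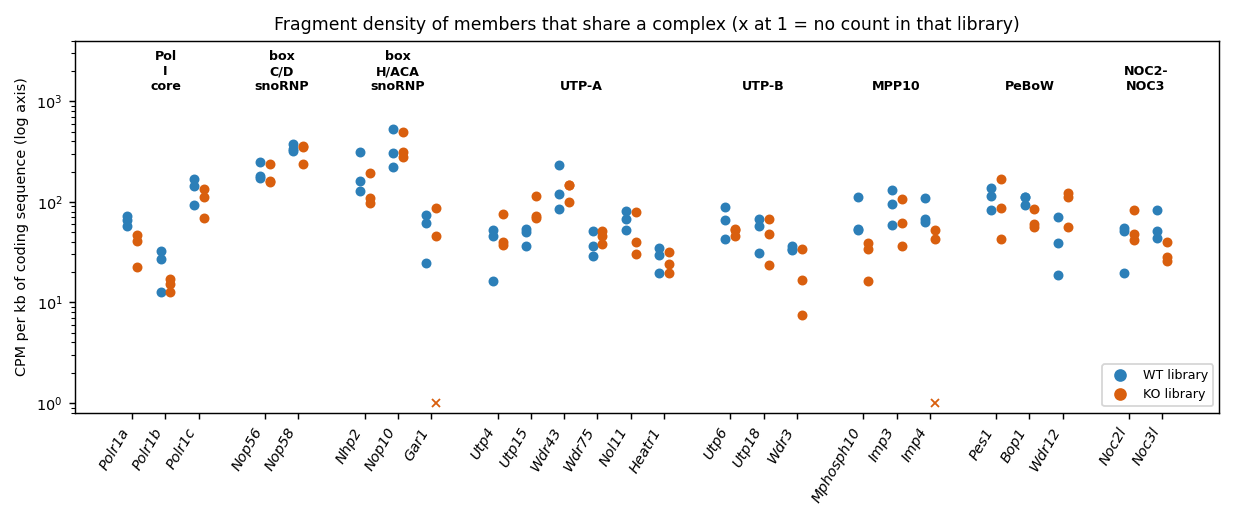
Fragment density (CPM per kb of coding sequence, log axis) of members that share a complex, in each WT (blue) and KO (orange) library; a cross at 1 marks no count. Nop58 lies above Nop56 in both groups on average, Polr1b lies lowest in the polymerase core, and Wdr12 has its 3 WT libraries below all WT libraries of Pes1 and Bop1.

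How precisely a member was measured followed its depth. The half-width of the 95% interval ran from 0.38 (Ncl) to 2.81 (Gar1) on the log2 scale, with a median of 0.95, and ranked almost inversely with mean molecule equivalents (Spearman -0.96 over 60 members, which share libraries and a spread that the model ties to abundance). For 15 members the interval lay wholly within a 2-fold difference in either direction: Ubtf, Ncl, Npm1, Nolc1, Ddx21, Nop56, Nop58, Wdr43, Heatr1, Utp20, Bms1, Nop14, Pdcd11, Tsr1 and Ftsj3. Among them Ncl, Npm1 and Nop56 have at least 10% of their windows in other transcripts. For 28 members the half-width exceeded 1, so that a fitted 2-fold difference would have left 0 inside the interval. The intervals are not adjusted for the number of genes tested. A half-width under 1 therefore does not mean that a 2-fold difference would have been called. Nol9, with a half-width of 0.99 and a log2 fold change of -1.02, had an edgeR adjusted p of 0.736.

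**Figure D5:**
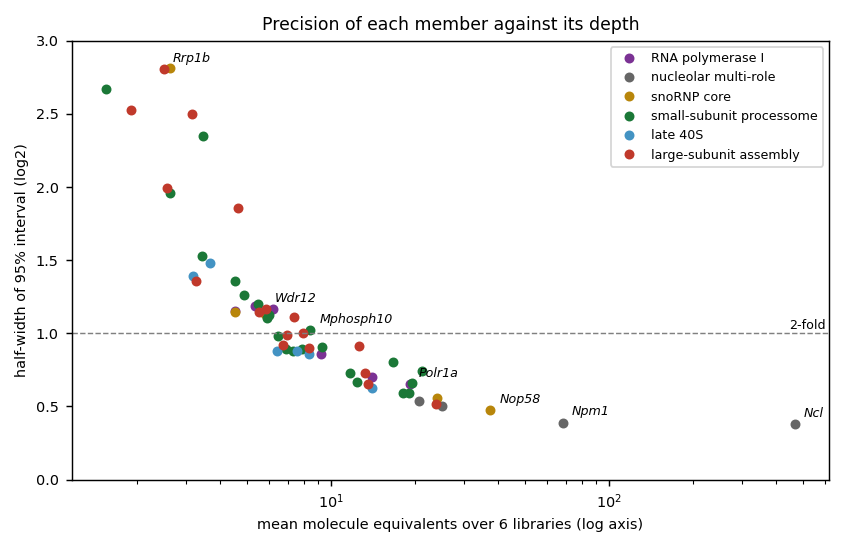
Half-width of the 95% interval of each member's log2 fold change against its mean molecule equivalents over 6 libraries (log axis), coloured by role; the dashed line marks 2-fold. Ncl has the narrowest interval (0.38), and 28 of the 60 members lie above the line.

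Other genes of the pathway were taken from a list of 116 symbols, which was drawn up with earlier results of these data known. Of these 113 were matched and 106 tested. By edgeR's quasi-likelihood test 0 were called, 7 had an unadjusted p under 0.05 (beside 6.49% of all tested genes), and the median was -0.25, with 65 negative and 41 positive. Groups did not overlap for 10 with KO lower and 7 with KO higher, beside 7.93% and 6.94% of all tested genes; among the 60 members it was 8 (13.3%) and 2 (3.33%). DESeq2 called 2 of the other genes (beside 2.66% of all genes), named for that count. Mdn1 is the giant ATPase that remodels pre-60S particles (WT 180 CPM, KO 319 CPM, edgeR log2 fold change 0.83, SE 0.27, DESeq2 adjusted p = 0.018). Utp11 is a processome protein (WT 113 CPM, KO 31.8 CPM, edgeR log2 fold change -1.83, SE 0.60, DESeq2 adjusted p = 0.045). The edgeR adjusted p was 0.413 for Mdn1 and 0.422 for Utp11. The 13 tested genes of RNA polymerase I, which include the shared subunits Polr2e, Polr2f, Polr2h and Polr2k, had a median of -0.51. That is the value of Cd3eap (SE 1.42, KO counts 16, 1 and 195). Among these genes Polr1e, Twistnb, Taf1a, Polr2h and Ttf1 had no count in a KO library, so this median is uncertain. Medians were -0.21 for the processome (25), -0.23 for large-subunit assembly (41) and -0.068 for late 40S factors (4). For snoRNPs (8) the median was -0.14 and for the exosome and rRNA nucleases (15) -0.35.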

How the data were processed

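The authors deposited raw counts of fragments per gene (Ensembl identifiers) for all 6 libraries in 1 table. Per the labels' protocols, reads of 25 to 34 nt were kept, Bowtie served to take out rRNA and tRNA reads, and HISAT2 to align the others to GRCm38. Cutadapt, featureCounts and DESeq2 appear in the submitters' processing notes. Annotation, strand setting and handling of multiply matching reads: not given in the sources used here. Of 53465 identifiers 53360 matched GENCODE M21, and 0 columns had no sample.

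All genes were fitted together with edgeR 4.0.16 (R 4.3.3): TMM factors, filterByExpr by group, robust quasi-likelihood test, Benjamini-Hochberg over 8200 genes, threshold 0.05. The procedure was run on counts simulated from its own fitted means and spread. These lack the repeated copies of fragments described above, so the run does not test their effect. Each SE was back-calculated as the size of the log2 fold change over the square root of the test's F statistic. Intervals are 95%, were built from this SE and the t distribution, and cover the spread between libraries. Both are therefore approximate. No molecular identifiers are described. The longest coding sequence of a gene gave its length. Modal counts are the peak of the smoothed number of genes per count (bandwidth 3, counts 8 to 150). Members, roles and lists were chosen with earlier results of these data known, so no list was tested. Named with a value in every library (CPM or counts), by rule, are up to 4 members per role with the smallest p and the one with the highest density, 28 in all; the others are named with fewer values, and Gnl2, Wdr3, Ddx56, Ebna1bp2, Imp4, Noc4l, Mrto4 and Rrp1b were given library values after these were seen. DESeq2 1.42.0 was an alternative, beside those in the closing section. Python 3.11.15 with pandas 2.3.3, scipy 1.17.1 and matplotlib 3.10.9 made tables and plots.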

Additional observations from a re-analysis of the deposited data

How the results depend on the processing

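No member was called in any of 14 other settings, including 6 that left out a library. The lowest adjusted p of a member was 0.137 by edgeR (molecule equivalents) and 0.12 by DESeq2. The count over all genes went from 33 to 236 by DESeq2, 91 with no count filter and 109 on molecule equivalents, and to between 6 and 29 without single libraries. Called other pathway genes went from 0 to 2 by DESeq2. The large-subunit median went from -0.31 to -0.20 with library totals and -0.44 on molecule equivalents. With the replicate number as a block (replicate block) it was -0.60, and 38 genes were called. In that fit the median was -0.24 over the members and -0.10 over all tested genes. Same-numbered WT and KO libraries did not deviate together (r = -0.017, -0.003 and -0.007). Differently numbered ones did not either (r from -0.02 to 0.028). At this depth the check could not show whether the numbers pair libraries. Without members that have copies elsewhere, a setting chosen after seeing the data, the large-subunit median was -0.64 and the multi-role median 0.10 over 2 genes. Without single libraries, medians ran from -0.34 to -0.11 (all members), -0.52 to -0.21 (large subunit), -0.43 to -0.11 (processome), -0.29 to -0.010 (multi-role) and -0.38 to -0.15 (other pathway genes). Other medians moved by less than the spread between libraries. The share of counts without Ncl was 1.24% in WT and 1.09% in KO when mitochondrial and the 10 most abundant genes left the total. Of 28 fully described members 21 kept their sign in all settings run, and 7 changed it, all only without single libraries: Ncl from -0.38 to 0.060, Nop56 from -0.35 to 0.055, Nop58 from -0.21 to 0.048, Nop10 from -0.25 to 0.45, Gar1 from -1.22 to 0.32, Wdr43 from -0.42 to 0.36 and Tsr1 from -0.10 to 0.13. For 28 members the interval was wider than 2-fold either way. The parts of depth and of spread between libraries in this width were not tested.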
